A study of Mus musculus with 17 samples.

Results

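When mouse embryonic stem cells were moved from a naive medium toward primed pluripotency, 123 protein-coding genes were high after 35 h and low again after 4 days, in both cell lines examined. They were chosen by their CPM (counts over the summed gene counts of a library, scaled to 1000000). A gene had to reach 5 CPM at 35 h in both lines, and its CPM + 0.5 at 35 h had to be at least 2 times that in the naive medium and at least 2 times that at 4 days, in each line. The 123 were found among 9726 protein-coding genes at 5 CPM or more at 35 h, of 21697 protein-coding genes listed. Of the 9726, 443 were at least 2 times the naive level in both lines, and 899 were at least 2 times the level at 4 days.

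Polyadenylated RNA was sequenced from embryonic stem cells of the lines R1 and CGR8, grown without serum in N2B27 medium, with the cytokine LIF in every medium. LIM contained the MEK inhibitor PD325901 and IWP2, which blocks the secretion of Wnt ligands; the cells had spent 4 (R1) and 6 (CGR8) passages in it. LFAI, sampled at 35 h and at 4 days, combined IWP2 with the growth factors FGF2 and Activin A. L2i, the naive medium, contained PD325901 and the GSK3 inhibitor CHIR99021. Every group was a pair of libraries, 1 from R1 and 1 from CGR8 (n = 2), so the spread between replicates is the spread between lines. Earlier passages in 2i were 5 and 5 (R1, CGR8) for LIM, 9 and 7 for LFAI at 35 h, 3 and 9 for LFAI at 4 days, and 10 and 8 for L2i, so time in 2i differed with the medium. Separate time courses of R1 alone followed cells from L2i (day 0) into LFAI or LIM for 4 days, with 1 library a day. They were grown on another coating (gelatin and fetal calf serum rather than gelatin and a basement membrane extract) and sequenced with another protocol, and were kept apart.

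The exit from naive pluripotency passes through a formative interval in which the naive network is taken down, de novo DNA methylation machinery comes up, and cells become able to respond to lineage signals. FGF acts through MEK and ERK, which PD325901 blocks in L2i and LIM. Activin A signals through the receptors that Nodal uses and through SMAD2 and SMAD3, whose best-known targets include their own inhibitors, the Lefty genes.

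The library labelled LFAI day 1 stood apart from its label. Of 11559 genes compared, only 23 differed 2-fold between it and LIM day 1, against 1569 between it and LFAI day 2. For scale, LIM day 1 and LIM day 2 differed 2-fold at 83 genes. Dusp6, a phosphatase induced by ERK signalling, stood at 9.22 CPM in it, 77.4 CPM in LFAI day 2 and 9.70 CPM in LIM day 1. Of the 123 members, 120 were within 1.5 times of LIM day 1 in it. It is called the library labelled LFAI day 1 throughout, and the counts of members at a 2-fold threshold that use it are also given without it.

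The libraries held 15.14 to 22.59 M gene counts (M, units of 1000000) in the set with both lines and 12.89 to 13.67 M in the time courses. Summed over 9 pluripotency markers, the level was 4394 to 4577 CPM at 35 h and 4207 to 4967 CPM in L2i, with all 9 over 5 CPM. Of 12 primitive endoderm markers none was over 5 CPM at 35 h, and their sum was 7.67 to 7.82 CPM against 5.22 to 5.93 CPM in L2i. Trophoblast markers summed to 31.1 to 38.4 CPM at 35 h, with Cdx2 and Tpbpa at 0, and to 119 to 124 CPM in L2i. Fibroblast markers summed to 12.0 to 12.5 CPM at 35 h and to 8.72 to 10.7 CPM in L2i. Of the 10, 1 was over 5 CPM at 35 h, while Col3a1, Lum, Postn and Twist2 were at 0. Markers of 2-cell-like cells (9 genes) summed to 223 to 316 CPM at 35 h, with 6 over 5 CPM in at least 1 line. Their sum was 226 to 321 CPM in L2i, 196 to 226 CPM in LIM and 181 to 184 CPM at 4 days. In L2i, 6 of these genes were over 5 CPM in at least 1 line, but 1 in LIM and 1 at 4 days. The sums in LIM and at 4 days thus rest largely on 1 gene. The sums also moved in the other groups. Primitive endoderm markers summed to 22.9 to 23.3 CPM in LIM and 6.60 to 9.99 CPM at 4 days, trophoblast markers to 156 to 199 CPM and 141 to 434 CPM, fibroblast markers to 22.6 to 35.6 CPM and 39.0 to 47.2 CPM, and pluripotency markers to 3447 to 3980 CPM and 3027 to 3098 CPM. The part of such cells in the members' levels was not tested. In bulk RNA, fewer cells with a transcript and less transcript per cell cannot be told apart.

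Among the members, 12 belong to a list of 46 interferon-stimulated and RNA-sensing genes that was drawn up after the values were seen: Irf1, Oas1c, Oas2, Zbp1, Ddx58, Ddx60, Parp12, Parp14, Gbp4, Gbp9, Irgm1 and Igtp. The promoters of these genes commonly carry the interferon-stimulated response element, whose core is a pair of GAAA blocks with any 2 bases between them (GAAANNGAAA, searched on both strands). RefSeq promoter windows (GRCm38.p6, 250 bases before to 50 after a start) were at hand for 86 members. The core was in 9 of the 86 genes (10.5%), against 258 of all 7801 genes with a window that reached 5 CPM at 35 h (3.31%). By window, it was in 9 of 121 (7.44%), against 2.67% of 10003. It was found in 5 of 9 interferon-linked and innate sensing members with a window, and in 4 of the 77 others. These 4 stretches, from members of the interferon response, show it in capitals and are written 5′ to 3′ along the gene's strand.
Ddx60: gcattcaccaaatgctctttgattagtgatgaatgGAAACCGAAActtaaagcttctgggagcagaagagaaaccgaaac
Igtp: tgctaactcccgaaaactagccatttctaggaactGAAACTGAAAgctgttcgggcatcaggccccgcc
Irgm1: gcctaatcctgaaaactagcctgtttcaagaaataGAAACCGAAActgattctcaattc
Oas1c: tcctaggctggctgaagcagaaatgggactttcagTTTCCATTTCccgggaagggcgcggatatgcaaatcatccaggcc
The Ddx60 stretch is chr8:61927999-61928078 on the plus strand, and its capitals begin 53 bases before the start; the same letters recur 19 bases before it. Igtp is chr11:58199487-58199555, plus strand, 34 bases before. Irgm1 is chr11:48871421-48871479, minus strand, 24 bases before. The Irgm1 stretch holds a second, overlapping match that begins 30 bases before the start. In Oas1c (chr5:120812578-120812657, minus strand, 108 bases before) the core reads on the opposite strand, as TTTC blocks, and a second match overlaps it, beginning 114 bases before the start. A match is a description of letters and no evidence of a bound factor.

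Among the other motifs, TCF/LEF and OTX-type cores were in a larger share of member genes than of all genes, and ETS cores in a smaller share. TCF/LEF cores (CTTTGA) were in 21 of the 86 member genes (24.4%) and in 13.5% of all, and OTX-type homeodomain cores (GGATTA) in 12 (14%) and in 6.46%. ETS cores (CCGGAA), common in housekeeping promoters, were in 12 member genes (14%) and in 35.1% of all. The 86 member genes had 121 windows and all 7801 genes had 10003, so a member gene had more windows in which to match. By window the shares were 17.4% and 11.2% for TCF/LEF, 10.7% and 5.3% for OTX-type and 12.4% and 30% for ETS cores. STAT palindromes (TTCNNNGAA) were in 10.5% and 8.13%, E-boxes (CACGTG) in 9.3% and 12.8%, and a tandem SMAD site (GTCTAGAC) in 0% and 0.295%. No member window held a response element core and a STAT match that shared bases; overlaps of the other motifs were not counted. The members' windows were also poor in CpG: the ratio of observed to expected CpG was under 0.5 in 39 member genes (45.3%) and in 10.2% of all, with medians of 0.561 and 0.819.

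**Figure D1:**
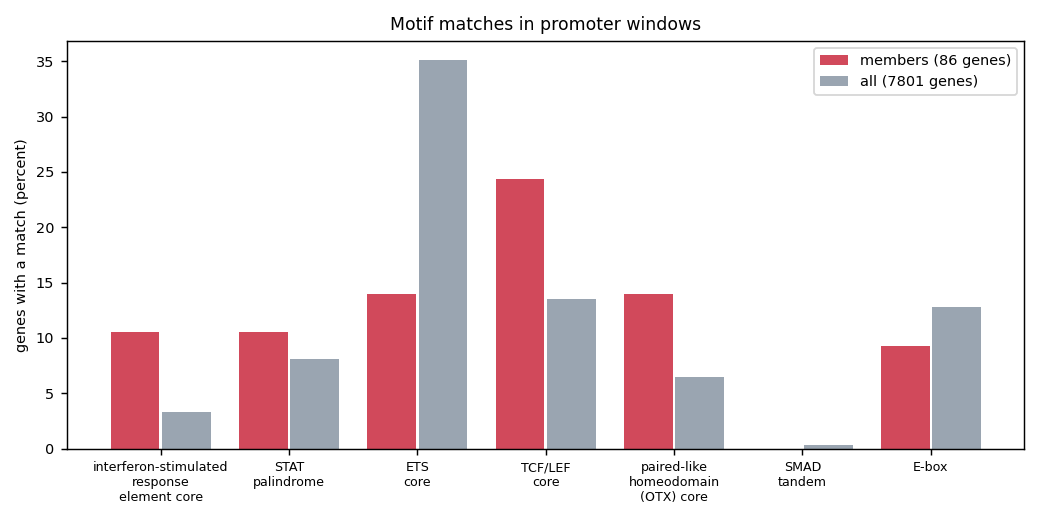
Percent of genes whose RefSeq promoter window holds each motif on either strand, for the members with a window (red, 86 genes) and all genes with a window that reached 5 CPM at 35 h (grey, 7801 genes). The response element core is at 10.5% in members and 3.31% in all, while the ETS core is at 14% and 35.1%.

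The values that chose the members are a description and carry no test. The lowest mean level at 35 h was 5.44 CPM, with 21 members at 100 CPM or more and 23 under 10 CPM. The median of the members' mean levels was 4.71 CPM in L2i, 28.3 CPM at 35 h and 4.52 CPM at 4 days, and it was 16.7 CPM in LIM. The smallest of a gene's 4 folds (35 h over L2i and over 4 days, in each line) had a median of 2.74; it was under 3 in 73 members, over 4 in 26 and over 10 in 7. Just inside the threshold were Pitpnc1 (smallest fold 2.004), Dppa4 (2.001) and Lefty1 (2.001), and just outside were Papolb (1.987), Tdgf1 (1.986) and Asap3 (1.986). Tdgf1, the co-receptor of Nodal, narrowly missed the rule, at 208 and 225 CPM in L2i (R1, then CGR8, here and below), 414 and 492 CPM at 35 h and 186 and 216 CPM at 4 days. The members were sorted by role after they were known, as a guide to the text, and 15 were left without a role.

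**Figure D2:**
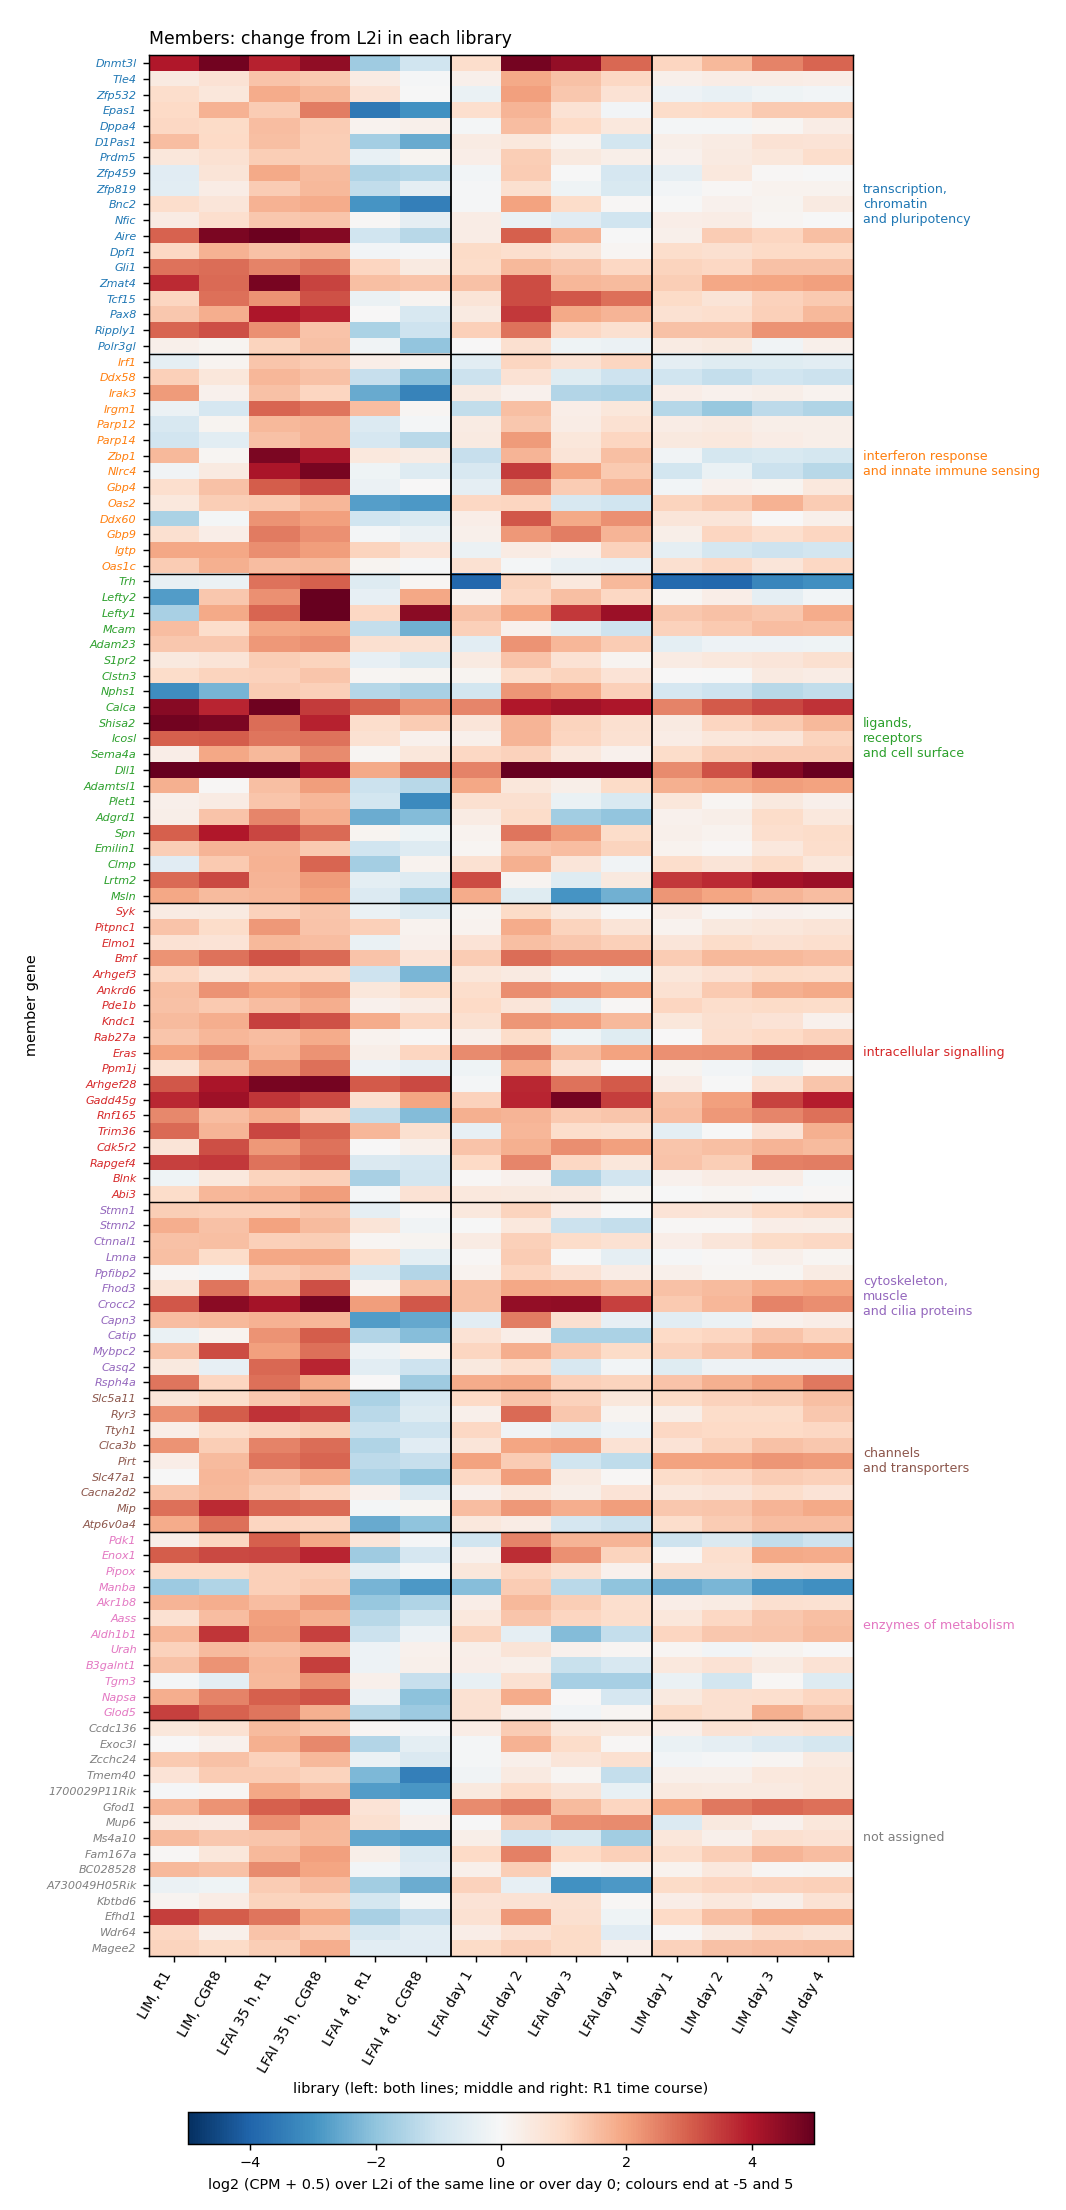
Each row is a member reported by name, grouped by role and sorted by level at 35 h; colour gives the log2 ratio of CPM + 0.5 to L2i of the same line (left 6 columns) or to day 0 (R1 time courses). The column of LFAI day 1 looks like that of LIM day 1, and LFAI day 2 is red in most rows.

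Regulators of transcription, chromatin and pluripotency made up 21 members. Dnmt3l, a cofactor without catalytic activity of its own that activates the de novo DNA methyltransferases, stood at 39.3 and 21.2 CPM in L2i, 577 and 469.6 CPM at 35 h and 11.0 and 10.5 CPM at 4 days. Its smallest fold was 14.5. Both lines held it high at 35 h only within the LFAI series. In LIM it stood at 638 and 621 CPM against 39.3 and 21.2 CPM in L2i, so the LIM libraries were above even those at 35 h. The log2 change of LIM over L2i was 4.30 ± 0.29 (SE; adjusted p = 0.00012, edgeR's quasi-likelihood test with Benjamini-Hochberg adjustment over 15525 genes, used for every adjusted p below). The L2i libraries helped to choose the members as low there, which favours a higher value in LIM, so this p and each later one for LIM over L2i is not independent of the choice.

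Aire, a transcriptional regulator best known for switching on tissue antigens in the thymus, had the largest smallest fold of all members, 24.0. It was at 0.62 and 1.65 CPM in L2i, 33.1 and 51.1 CPM at 35 h and 0.0644 and 0.327 CPM at 4 days. These levels rest on 14 and 25 counts in L2i and on 1 and 5 counts at 4 days. LIM held 8.11 and 56.3 CPM, against 0.62 and 1.65 CPM in L2i (log2 change 4.82 ± 0.90, adjusted p = 0.0076; 0.064 without the R1 library of L2i). The R1 library of LIM was far below that of CGR8. Aire and Dnmt3l overlap by 1.7 kb on opposite strands of chromosome 10 (78030022 to 78043610 and 78041947 to 78063622, GENCODE M21), and whether the counting used strand is not given in the sources used here, so reads from the overlap cannot be told apart. The next gene, 5.7 kb further, is also a member: Icosl, the ligand of the T cell co-stimulator ICOS, at 3.41 and 3.17 CPM in L2i, 24.4 and 23.4 CPM at 35 h and 6.19 and 3.79 CPM at 4 days.

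Pax8, a paired-box factor of thyroid and kidney, was low in L2i at 0.31 and 0.727 CPM, reached 12.9 and 16.6 CPM at 35 h and was at 0.322 and 0.196 CPM at 4 days. Tcf15, a basic helix-loop-helix factor linked to the priming of stem cells for differentiation, was at 4.47 and 2.11 CPM in L2i, 23.2 and 23.3 CPM at 35 h and 3.61 and 2.35 CPM at 4 days. LIM held intermediate amounts of both: 1.58 and 3.80 CPM of Pax8 against 0.31 and 0.727 CPM in L2i, and 9.83 and 17.2 CPM of Tcf15 against 4.47 and 2.11 CPM in L2i. Both passed the LIM over L2i test (log2 2.36 ± 0.57, adjusted p = 0.021, and 1.94 ± 0.42, adjusted p = 0.013), and both lost the call when some single libraries were left out (adjusted p of 0.12 for Pax8 without the R1 library of L2i and 0.069 for Tcf15 without the CGR8 library of LIM).

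Tle4, a co-repressor of the Groucho family, stood at 109.8 and 127 CPM in L2i, 297 and 319 CPM at 35 h and 146 and 121 CPM at 4 days. Dppa4, a nuclear protein of pluripotent cells, reached 132 and 109 CPM at 35 h. LIM over L2i was called for Dppa4 (log2 0.93 ± 0.15, adjusted p = 0.0037), while Tle4 gave 0.55 ± 0.17 (adjusted p = 0.053, and 0.042 with the line as a block). In a list of 19 early epiblast genes, 17 reached 5 CPM at 35 h. Of these, 14 were at least 2 times L2i in both lines and 3 were members, Dnmt3l and Tcf15 among them. Over all 9726 protein-coding genes at 5 CPM or more at 35 h, 443 were at least 2 times L2i and 123 were members. None of 15 naive factors was a member, and nothing is read from that absence in so short a list.

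**Figure D3:**
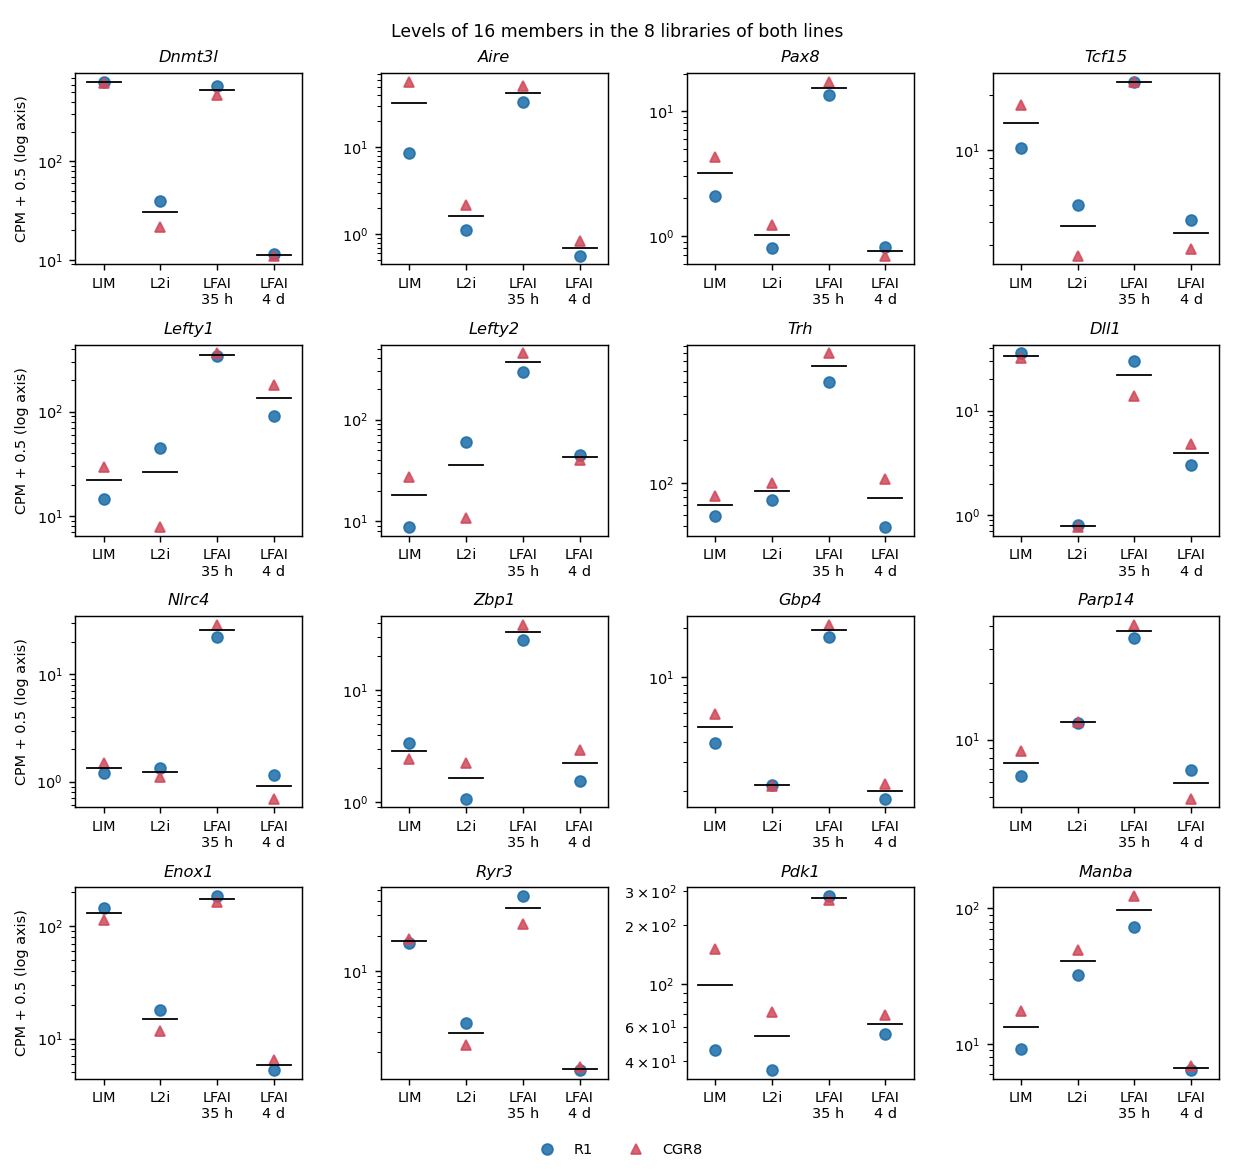
CPM + 0.5 on a log axis for 16 members in LIM, L2i, LFAI 35 h and LFAI 4 d; circles are R1, triangles CGR8 and bars the means of both. Dnmt3l, Dll1 and Enox1 are about as high in LIM as at 35 h, while Lefty1, Lefty2, Trh, Nlrc4, Zbp1 and Parp14 are high at 35 h and low in LIM.

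Ligands, receptors and surface proteins made up 21 members. The Nodal antagonists Lefty1 and Lefty2 lie 35.9 kb apart on chromosome 1 and are near-identical copies. Reads that align to both were counted for no gene, so each value is uncertain. Lefty2 was at 59.6 and 10.2 CPM in L2i, 296 and 448 CPM at 35 h and 44.6 and 39.9 CPM at 4 days. Lefty1 was at 44.7 and 7.33 CPM in L2i, 341 and 362 CPM at 35 h and 91.3 and 180.5 CPM at 4 days. R1 was the higher line in L2i for both genes and the lower at 35 h. LIM held 8.24 and 26.9 CPM of Lefty2 against 59.6 and 10.2 CPM in L2i, and 14.0 and 28.8 CPM of Lefty1 against 44.7 and 7.33 CPM in L2i: lower than L2i in R1 and higher in CGR8. Neither was called (adjusted p = 0.34 and 0.74), and these 2 were among the members with the lowest LIM over 35 h ratio (mean log2 of -4.56 for Lefty2 and -4.09 for Lefty1). They were the only members of a list of 18 Nodal and Activin pathway genes. Of the 18, 13 reached 5 CPM at 35 h, and 5 of these were at least 2 times L2i in both lines. Over all 9726 genes at 5 CPM or more at 35 h, 443 were.

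Trh, which encodes the precursor of thyrotropin-releasing hormone, was at 76.3 and 99.97 CPM in L2i, 499 and 794 CPM at 35 h and 49.0 and 107 CPM at 4 days. LIM held 59.0 and 80.5 CPM against 76.3 and 99.97 CPM in L2i (log2 -0.40 ± 0.35, adjusted p = 0.48). Nphs1, nephrin, an adhesion protein of kidney podocytes, reached 61.8 and 71.3 CPM at 35 h. It was one of just 2 members called lower in LIM, at 2.47 and 5.77 CPM against 25.1 and 30.6 CPM in L2i (log2 -2.82 ± 0.33, adjusted p = 0.00098).

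Other surface and signal genes were as high or higher in LIM. Dll1, a Notch ligand and the only member among 18 Notch pathway genes, was at 0.31 and 0.264 CPM in L2i, 29.0 and 13.3 CPM at 35 h and 2.51 and 4.25 CPM at 4 days. LIM held 34.8 and 31.3 CPM, against 0.31 and 0.264 CPM in L2i (log2 6.73 ± 0.55, adjusted p = 0.00024). Shisa2, of a family that in Xenopus holds back receptors for Wnt and FGF, had the highest LIM over 35 h ratio of all members: 95.3 and 70.5 CPM in LIM, against 23.2 and 38.7 CPM at 35 h and 2.88 and 2.25 CPM in L2i (LIM over L2i log2 4.93 ± 0.31, adjusted p = 9.4e-05). Calca, the precursor of calcitonin and its related peptide, was at 46.0 and 51.5 CPM in LIM, against 1.46 and 3.17 CPM in L2i (log2 4.38 ± 0.35, adjusted p = 0.00021), close to its 56.9 and 40.7 CPM at 35 h.

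Interferon-linked and innate sensing genes made up 14 members, the 12 named above with Nlrc4 and Irak3. Nlrc4, an inflammasome component that responds to bacterial proteins, had 0.841 and 0.595 CPM in L2i, 22.1 and 28.7 CPM at 35 h and 0.644 and 0.196 CPM at 4 days. Zbp1, a sensor of Z-form nucleic acids, had 0.575 and 1.72 CPM in L2i, 27.4 and 37.9 CPM at 35 h and 1.03 and 2.42 CPM at 4 days. Both were near the floor of detection on either side of 35 h, and LIM was near it too, at 0.697 and 0.981 CPM for Nlrc4 against 0.841 and 0.595 CPM in L2i, and at 2.85 and 1.90 CPM for Zbp1 against 0.575 and 1.72 CPM in L2i (adjusted p = 0.88 and 0.23).

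The immunity-related GTPase Irgm1 was at 9.91 and 13.1 CPM in L2i, 78.1 and 86.5 CPM at 35 h and 29.6 and 14.1 CPM at 4 days. Parp14, a mono-ADP-ribosyltransferase of the interferon response, was at 11.8 and 12.0 CPM in L2i, 33.8 and 40.0 CPM at 35 h and 6.38 and 4.38 CPM at 4 days. Both lines were lower in LIM than in L2i for these genes, at 8.11 and 7.11 CPM against 9.91 and 13.1 CPM for Irgm1, and at 5.90 and 8.22 CPM against 11.8 and 12.0 CPM for Parp14. Neither difference was called (log2 -0.65 ± 0.32, adjusted p = 0.19, and -0.81 ± 0.25, adjusted p = 0.053), although for Parp14 the adjusted p was 0.049 with the line as a block. The spans of Gbp4 and Gbp9, guanylate-binding proteins, overlap by 23.8 kb on chromosome 5. Reads that fit both cannot be told apart, so each value is uncertain. Gbp4 read 1.68 and 1.65 CPM in L2i, 17.3 and 20.6 CPM at 35 h and 1.29 and 1.70 CPM at 4 days. Ddx58, the RNA sensor RIG-I, was higher in LIM, at 61.0 and 61.6 CPM against 26.5 and 42.0 CPM in L2i (log2 0.79 ± 0.23, adjusted p = 0.044), as were Igtp (2.26 ± 0.36, adjusted p = 0.0035), Oas1c (1.78 ± 0.42, adjusted p = 0.019) and Gbp4 (1.34 ± 0.34, adjusted p = 0.027). The call of Gbp4 was lost without any 1 of the R1 library of L2i, the CGR8 library of L2i or the CGR8 library of LIM (adjusted p = 0.0998, 0.092 and 0.13).

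LIM was at least 2-fold below 35 h in both lines for 9 of these 14 members (Ddx60, Gbp4, Gbp9, Irf1, Irgm1, Nlrc4, Parp12, Parp14 and Zbp1), and for 30 of all 123, against 1.46% of the 9726 genes at 5 CPM or more at 35 h. The members were chosen as high at 35 h, which favours a lower value in LIM, so nothing is read from these shares. Of the 46 genes of the interferon list, 22 reached 5 CPM at 35 h. Of these, 13 were at least 2 times L2i in both lines, against 443 of the 9726 genes. Isg15, one of the most strongly interferon-induced genes, was at 0.694 and 0.195 CPM at 35 h against 0 and 0 CPM in L2i, Ifit3 was at 0 in all 4 of those libraries, and Mx1 was at 0 and 0.065 CPM at 35 h against 0 and 0.198 CPM in L2i. Of the 39 list genes tested, LIM over L2i was called higher for 10 and lower for 6, against 11.3% and 7.81% of all 15525 genes tested. The list was drawn up after the values were seen, so nothing is read from its counts.

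Signalling proteins inside the cell made up 19 members, among them the tyrosine kinase Syk and its adaptor Blnk, the Ras protein of embryonic stem cells Eras, the cyclic AMP-activated exchange factor Rapgef4 and the pro-death protein Bmf. Of these 19, 15 were called higher in LIM, with a median log2 of 1.77, against 65 of all 123 members and 11.3% of all 15525 genes tested. Rapgef4 stood at 0.531 and 0.396 CPM in L2i, 6.25 and 6.43 CPM at 35 h and 0.129 and 0 CPM at 4 days. It was higher in LIM than at 35 h in both lines, at 10.5 and 10.0 CPM against 6.25 and 6.43 CPM.

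Cytoskeletal, muscle and cilia proteins made up 12 members and channels and transporters 9. The microtubule-destabilizing Stmn1 was at 195 and 161 CPM in L2i, 445 and 418 CPM at 35 h and 143 and 165 CPM at 4 days, and its relative Stmn2 at 97.5 and 110.0 CPM, 399 and 335 CPM, and 151 and 97.6 CPM. Both were called higher in LIM, Stmn1 at 459 and 371 CPM against 195 and 161 CPM in L2i and Stmn2 at 347 and 306 CPM against 97.5 and 110.0 CPM in L2i, with log2 changes of 1.16 ± 0.17 (adjusted p = 0.0025) and 1.59 ± 0.20 (adjusted p = 0.0015). Ryr3, an intracellular calcium release channel, was at 3.05 and 1.78 CPM in L2i, 43.5 and 24.6 CPM at 35 h and 0.902 and 0.98 CPM at 4 days, and Casq2, a calcium store protein of cardiac muscle, at 0.31 and 0.661 CPM, 5.43 and 16.0 CPM, and 0.0644 and 0.0654 CPM. LIM held Ryr3 at 16.9 and 18.2 CPM against 3.05 and 1.78 CPM in L2i (log2 2.76 ± 0.37, adjusted p = 0.0017), whereas Casq2 in LIM was at 0.634 and 0.368 CPM against 0.31 and 0.661 CPM in L2i (adjusted p = 0.98).

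Metabolic enzymes made up 12 members. Pdk1, a kinase that inhibits pyruvate dehydrogenase and so favours glycolysis, was the only member of a list of 17 glycolysis genes, all 17 of which reached 5 CPM. It was at 35.4 and 71.1 CPM in L2i, 283 and 269 CPM at 35 h and 54.8 and 68.7 CPM at 4 days. Its lines differed in LIM, at 45.0 and 151 CPM, against 35.4 and 71.1 CPM in L2i (log2 0.82 ± 0.48, adjusted p = 0.28). Enox1, an NADH oxidase of the cell surface, was at 17.6 and 11.2 CPM in L2i, 184 and 164 CPM at 35 h and 4.77 and 5.95 CPM at 4 days. It was called higher in LIM, at 145 and 114 CPM against 17.6 and 11.2 CPM in L2i (log2 3.10 ± 0.25, adjusted p = 0.00025). Manba, the lysosomal beta-mannosidase, was called lower: LIM held 8.62 and 17.1 CPM against 31.6 and 49.1 CPM in L2i (log2 -1.71 ± 0.36, adjusted p = 0.012), below its 71.9 and 123 CPM at 35 h. That call was lost without the CGR8 library of L2i (adjusted p = 0.063) and without the R1 library of LIM (0.062).

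Over all members, LIM was called higher than L2i in 65 of 123, against 11.3% of all 15525 genes tested, and lower in 2 (Nphs1 and Manba), against 7.81% of all. Since the L2i libraries entered the choice, nothing is read from the gap between those shares. The median log2 change of LIM over L2i was 1.20 for the members and 0.01 for all genes tested. Within the members the amounts in LIM spread widely: LIM was at or above 35 h in both lines for 16 members (Atp6v0a4, Cacna2d2, Ctnnal1, Dll1, Dnmt3l, Efhd1, Eras, Gadd45g, Gli1, Glod5, Icosl, Lrtm2, Rapgef4, Ripply1, Rnf165 and Shisa2) and below 35 h in both lines for 86. It was below L2i in both lines for 8 (A730049H05Rik, Ddx60, Irgm1, Manba, Nphs1, Parp14, Tgm3 and Trh). The choice of members as high at 35 h and low in L2i favours a LIM value between them. The shares over all genes were not counted, so nothing is read from these counts.

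**Figure D4:**
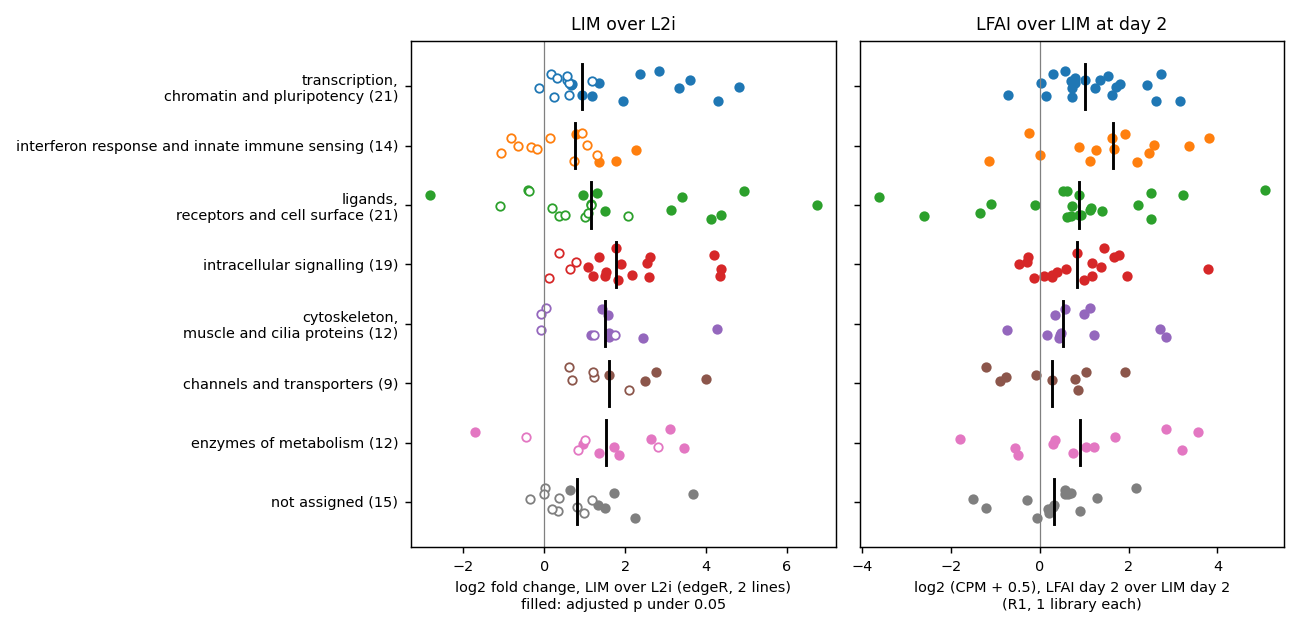
Each point is a member, by role (number of members in brackets), with black bars at the medians. The left panel gives edgeR's log2 change of LIM over L2i, filled where the adjusted p was under 0.05; the right panel gives LFAI day 2 over LIM day 2 in the R1 time courses, where the median of the interferon and innate sensing members is 3.13-fold and that of the channels and transporters 1.21-fold.

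The R1 time courses used none of the libraries that chose the members, and 35 h falls between their days 1 and 2. LFAI day 2 was at least 2 times day 0 in 84 of the 123 members, against 5.57% of the 9726 genes at 5 CPM or more at 35 h. LFAI day 2 was at least 2 times LFAI day 4 in 53 members, against 4.45%. The medians over the members were 2.65-fold for day 2 over day 0 and 1.91-fold for day 2 over day 4, and over all 9726 genes 0.977 and 0.983. Among days 2 to 4 the highest was day 2 in 101 members, day 3 in 13 and day 4 in 9. Over all 9726 genes this split was not counted, so nothing is read from it. With no replicate in the time courses these are counts without a test.

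Both sides together were met by fewer. At the higher of days 1 and 2, with 5 CPM or more there, 38 of the 123 were at least 2 times day 0 and at least 2 times day 4, against 1.56% of 10741 protein-coding genes at 5 CPM or more on either day; 112 of the members reached that minimum. Without the library labelled LFAI day 1, 32 members met this on day 2, against 0.851%, with 106 members at the minimum. The 6 that dropped out were A730049H05Rik, Aldh1b1, Lrtm2, Mcam, Msln and Ttyh1. In LIM, none of the 123 was transient in this sense, against 0.105% of genes, with 95 members at the minimum. LIM day 4 was at least 2 times day 0 in 57 members, against 3.81%.

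Dnmt3l was at 24.5 CPM on day 0, 45.4 CPM in the library labelled LFAI day 1, and 695, 529 and 181 CPM on LFAI days 2, 3 and 4, while LIM days 1 to 4 held 52.4, 77.2, 139 and 186 CPM. The LFAI course peaked and fell and the LIM course climbed steadily, and they met on day 4. LFAI was then still 7.26-fold above day 0. Aire also peaked on LFAI day 2, and on day 4 it was lower in LFAI than in LIM. It was at 14.8 CPM on day 0, 19.3 CPM in the library labelled LFAI day 1, and 123, 49.9 and 14.7 CPM on LFAI days 2 to 4, against 18.0, 36.8, 31.6 and 43.0 CPM on LIM days 1 to 4. Enox1 was at 12.1 CPM on day 0 and at 161, 61.6 and 27.0 CPM on LFAI days 2 to 4, against 22.1, 45.8 and 45.6 CPM on LIM days 2 to 4. Ryr3 was at 10.4 CPM on day 0 and at 77.1, 27.1 and 11.5 CPM on LFAI days 2 to 4. The muscle protease Capn3 was at 12.5 CPM on day 0 and at 75.3, 22.3 and 9.29 CPM on LFAI days 2 to 4. All of these had their highest LFAI value on day 2. The smaller of the folds of the higher of days 1 and 2 over day 0 and over day 4 was largest in Aire (8.02), Lrtm2 (6.70), Ryr3 (6.45), Enox1 (5.87) and Capn3 (5.81). For Lrtm2, a membrane protein with leucine-rich repeats, that value came from the library labelled LFAI day 1 (9.88 CPM), and it was at 0.687 CPM on LFAI day 2 and 12.3 CPM on LIM day 1.

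Nlrc4 was at 1.77 CPM on day 0, at 25.0, 8.77 and 5.17 CPM on LFAI days 2 to 4, and at 1.33, 0.592 and 0.371 CPM on LIM days 2 to 4. Parp14 was at 6.42 CPM on day 0, at 29.9, 9.74 and 14.0 CPM on LFAI days 2 to 4, and at 9.42, 8.44 and 8.09 CPM on LIM days 2 to 4. In both, the highest LFAI value was on day 2, and LIM was below it on every day. Irgm1 was 2.81-fold above day 0 on LFAI day 2 (35.1 against 12.2 CPM) and 10.3-fold above LIM day 2 (2.94 CPM). Most of the 14 innate members did not both rise and fall 2-fold. On LFAI day 2, 10 were at least 2 times day 0 (5.57% of all 9726 genes) and 5 at least 2 times LFAI day 4 (4.45%). Only 3 were transient in the sense above, against 1.56% of all 10741 genes at the minimum. Oas1c was at 5.27 CPM on LFAI day 2, 5.68 CPM on day 0 and 12.1 CPM on LIM day 2. Irf1 was as high on LFAI day 4 (109 CPM) as on day 2 (108 CPM).

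Some members were not highest on LFAI day 2 in the time course. Lefty1 was at 28.5 CPM on day 0, 79.1 CPM in the library labelled LFAI day 1, and 115, 339.8 and 566 CPM on LFAI days 2, 3 and 4, so it was highest on the day at which it had fallen in the set with both lines. Lefty2 was at 63.6 CPM on day 0 and 132, 179 and 131 CPM on LFAI days 2 to 4. Dll1 was at 0.148 CPM on day 0 and 27.3, 43.6 and 42.0 CPM on LFAI days 2 to 4. Trh was at 62.5 CPM on day 0 and 138, 90.2 and 194 CPM on LFAI days 2 to 4. Igtp, Mup6 (a major urinary protein of a family of near-identical genes, so that its value is uncertain) and Zcchc24 were higher on LFAI day 4 than on day 2.

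**Figure D5:**
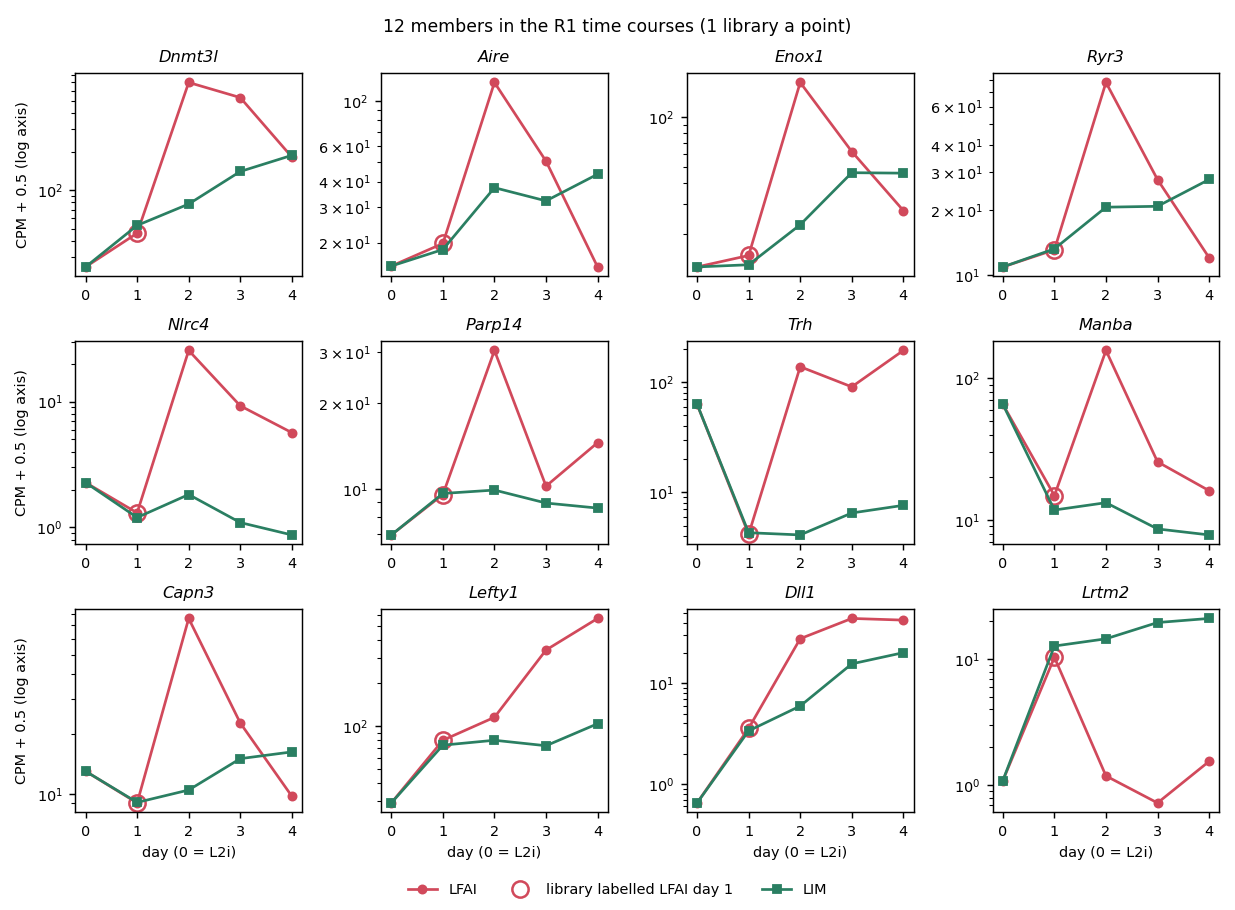
CPM + 0.5 on a log axis over days 0 to 4 for 12 members in LFAI (red) and LIM (green), 1 library a point, with the library labelled LFAI day 1 ringed. Dnmt3l, Aire, Enox1, Ryr3, Nlrc4, Manba and Capn3 peak on LFAI day 2; Lefty1 rises through day 4 to 566 CPM, and Lrtm2 is high only in LIM and in the ringed library.

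Set against LIM on the same day, LFAI was at least 2 times as high on both day 1 and day 2 in none of the 123 members, against 0.0186% of all 10741 genes, a count that rests on the library labelled LFAI day 1. On day 2 alone, with 5 CPM or more in LFAI, 47 of the 123 were at least 2 times LIM, against 4.67% of all. With no minimum, 52 were at least 2-fold higher in LFAI and 9 at least 2-fold lower on day 2. The shares over all genes were not counted without the minimum, nor for the lower side, so nothing is read from that gap. By role, 10 of the 14 interferon and innate sensing members were at least 2-fold higher (median 3.13-fold) and 11 of 21 transcription and chromatin members (2.02-fold). So were 9 of 19 signalling proteins inside the cell, 6 of 12 metabolic enzymes and 8 of 21 ligands, receptors and surface proteins. The rest were 4 of 12 cytoskeletal, muscle and cilia proteins, 2 of 9 channels and transporters (1.21-fold) and 2 of 15 without a role. These counts use no minimum, and roles were set after the members were known, so nothing is read from them. Trh had 138 CPM in LFAI and 3.61 CPM in LIM on day 2, a fold of 33.6. Across the 123 genes, the log2 ratio of 35 h to LIM (mean of both lines) and that of LFAI to LIM on day 2 had a Pearson r of 0.41 and a Spearman rho of 0.34; across the 9726 genes they were 0.26 and 0.21. Genes are not independent replicates, and all points share the same libraries.

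LIM after passages and LIM after 4 days were not alike for several members. Of the 65 called higher in LIM in the set with both lines, 38 were at least 2 times day 0 on LIM day 4, and of the 58 others 19 were. Trh was at 62.5 CPM on day 0 and at 3.80, 3.61, 6.00 and 7.12 CPM on LIM days 1 to 4, while passaged LIM cells of R1 had 59.0 CPM against 76.3 CPM in L2i. Lefty1 was at 14.0 CPM in passaged LIM cells of R1 and 103 CPM on LIM day 4. Dnmt3l was at 638 CPM in passaged LIM cells of R1 and 186 CPM on LIM day 4. Coating and sequencing protocol differ between these sets together with the time in LIM, and cannot be told apart from it. LFAI at 4 days also differed between the sets. R1 held 11.0 CPM of Dnmt3l at 4 days against 39.3 CPM in L2i, while LFAI day 4 of the time course held 181 CPM against 24.5 CPM on day 0. Enox1 and Nlrc4 were also above day 0 on LFAI day 4 (2.18-fold and 2.50-fold), while Aire was at 0.99-fold. The cause was not tested.

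The rule asked the same of both lines and did not fix which is higher. With the medium as a covariate, no member was called between R1 and CGR8, where 0.251% of genes were called higher in R1 and 0.29% lower in R1. At an unadjusted p under 0.05 there were 30 members, against 10.2% of all genes tested, and DESeq2's Wald test called 7, against 1.95% of the genes it tested. The nearest were Aass, an enzyme of lysine breakdown (log2 R1 over CGR8 1.16 ± 0.22, adjusted p = 0.071), Trh (-0.63 ± 0.13, adjusted p = 0.091), Lmna, the gene of the A-type lamins (0.94 ± 0.21, adjusted p = 0.12), and Clca3b (1.36 ± 0.31, adjusted p = 0.12). Aass was at 16.6 (R1) and 11.7 (CGR8) CPM in LIM, 42.1 and 13.6 CPM at 35 h, 3.42 and 1.76 CPM at 4 days, and 9.69 and 3.63 CPM in L2i, higher in R1 in 4 of 4 media. At 35 h itself, 55 of the 123 members were higher in R1, and the share over all genes was not counted. Passage numbers (R1, then CGR8) were 30 and 34 in LIM and 31 and 30 at 35 h. They were 26 and 33 at 4 days and 32 and 31 in L2i, so neither line had the higher number in every medium. The part of passage number in the differences between lines was not tested.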

How the data were processed

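Gene counts of 17 libraries were used as the authors deposited them: whole-number counts per gene, not normalized. Libraries were made with a stranded mRNA kit, per the labels' protocols. The submitters' processing notes name HISAT2 2.0.4, HTSeq 0.6.1, DESeq2 1.10.1 and GRCm38 (mm10); the strand setting of the counting and the annotation release are not given in the sources used here. The 5 summary rows were dropped (47.69 to 51.93% of reads were assigned to no gene), and 99.12% of 47729 gene IDs matched GENCODE M21, which gave biotype and position. Gene counts summed to 15.14 to 22.59 M (units of 1000000) in the set with both lines and 12.89 to 13.67 M in the time courses.

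The members and gene lists were chosen with earlier results of these data known, and the roles and the interferon list after the values were seen. Named genes were members with the largest folds at 35 h, the highest levels, a place in a gene list, a value next to the threshold, the most extreme LIM over 35 h or time course ratio, or the smallest p; members outside that rule were picked as examples of a role after their values were seen. Some members are counted but not reported by name here.

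CPM was computed here on summed gene counts, and folds used CPM + 0.5. LIM was compared with L2i by edgeR 4.0.16 (R 4.3.3; TMM, genes kept by filterByExpr, quasi-likelihood test on all 8 libraries of the set with both lines, no block, 4 residual degrees of freedom), adjusted by Benjamini-Hochberg over 15525 genes and called at an adjusted p under 0.05. R1 was compared with CGR8 with the medium as a covariate (3 residual degrees of freedom). The fits were tested on simulated data. The cell line pairs the samples across media: deviations of same-line libraries from their group means correlated between 0.04 and 0.40, and with the line as a block 77 members were higher and 3 lower in LIM. The time courses have no replicates and no test. Alternatives were DESeq2 1.42.0, other scalings, filters, pseudocounts and thresholds, and each library left out in turn.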

Additional observations from a re-analysis of the deposited data

Results flagged for a closer look

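The Nodal antagonists Lefty1 and Lefty2 moved in opposite directions in the 2 lines when LIM was set against L2i. The log2 ratio of CPM + 0.5 for Lefty1 was -1.64 in R1 and 1.90 in CGR8, and for Lefty2 it was -2.78 in R1 and 1.36 in CGR8. With 1 library per line and medium, the difference between lines was not tested. The genes are near-identical neighbours, so these are not independent observations.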

How the results depend on the processing

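The rule gave 123 members, and 269 or 50 with a fold of 1.5 or 3, 186 with a CPM minimum of 1, and 214 to 216 from 1 line alone. Of the 38 members transient in the LFAI time course, the count was 75 or 20 at a fold of 1.5 or 3 (65 or 17 without the library labelled LFAI day 1, chosen after seeing the data), and 9 from the library labelled LFAI day 1 alone; the count transient in LIM was 0, and 1 at a fold of 1.5. The count higher in LFAI than LIM on both days was 0, 1 at a fold of 1.5 and 47 on day 2 alone. The later time course comparisons, added after seeing the data, gave 26 in place of 57 (LIM day 4 over day 0, fold of 3), and 86 or 33 in place of 53 (LFAI day 2 over day 4, fold of 1.5 or 3). Members higher in LIM than L2i numbered 65, 48 to 66 with 1 library left out, 76 with DESeq2 and 77 with the line as a replicate block. Those lower numbered 2, 4 with no filter on low counts, and 1 to 3 with 1 library left out: 1 without the CGR8 library of L2i and 1 without the R1 library of LIM. Between lines 0 were called, 7 with DESeq2, 18 with no filter on low counts and 0 to 4 with 1 library left out, the 4 without the R1 library of LFAI 4 d. The cause of these changes was not tested. For the named members, LIM over L2i kept its side of the threshold under 550 of the alternatives run per gene, lost the call in 21, gained it in 27 and reversed in 0. The block gained a call for Aass, Clca3b, Lmna, Napsa, Parp14 and Tle4. Levels under about 1 CPM rest on few counts and limit folds such as those of Aire, Nlrc4, Casq2, Dll1 and Pax8. At 4 days (R1, then CGR8), Aire had 1 and 5 counts and Nlrc4 10 and 3.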

Other observations

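Members of the same genomic neighbourhood recurred. Aire, Dnmt3l and Icosl lie side by side on chromosome 10, Lefty2 and Lefty1 35.9 kb apart on chromosome 1, Oas2 and Oas1c 50.3 kb apart on chromosome 5, and Sema4a and Lmna 19.0 kb apart on chromosome 3. How often so many neighbours would be expected was not tested.

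Sema4a, a semaphorin, was the only member among 22 ephrin, semaphorin and axon guidance genes, at 6.68 and 3.90 CPM in L2i (R1, then CGR8), 21.4 and 22.1 CPM at 35 h and 7.15 and 6.08 CPM at 4 days. No gene of the lists of 23 ERK feedback genes or 16 FGF ligands and receptors was a member. At 35 h, 15 and 7 of them reached 5 CPM, of which 6 and 2 were at least 2 times L2i in both lines. Over all 9726 protein-coding genes at 5 CPM or more at 35 h, 443 were at least 2 times L2i and 123 were members. Nothing is read from the absence of members in lists this short.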
